A study of Mus musculus with 21 samples.

Results

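The complement genes described here encode 9 proteins: the C1q chains C1qa, C1qb and C1qc, the central component C3, the receptors C3ar1, C5ar1 and Itgam, and the inhibitors Serping1 and Cd55. They were chosen by name as complement proteins, receptors and inhibitors other than C4b, with earlier results of these data known. They are 9 of the 48474 genes counted in the table. RNA of neocortex was sequenced from rNLS8 mice, which carry a NEFH-tTA transgene and a tetO-hTDP-43ΔNLS transgene, and from monogenic littermates, labelled wild type. Which transgene the littermates carried was not given. The neurofilament heavy chain promoter of the NEFH-tTA transgene directs expression mainly to neurons. All mice, controls included, were injected into the cerebral ventricle with an antisense oligonucleotide without a target (350 µg in 10 µL) at 17 to 19 weeks of age. All were fed doxycycline, which keeps the tetO transgene off, at 200 mg/kg of diet until 2 weeks after the injection and were killed 3 weeks after it was withdrawn. Cohort A held 4 wild-type and 3 rNLS8 mice and cohort B held 7 of each, so that 11 wild-type and 10 rNLS8 mice were compared. Each library was 1 mouse, and the sex of the mice was not given.

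Complement is a cascade of proteins that marks surfaces for removal. C1q, built from the C1qa, C1qb and C1qc chains, binds a target and starts the classical pathway, which leads through C4 and C2 to the cleavage of C3. Fragments of C3 stay bound to the target and are read by receptors such as the integrin CR3, of which Itgam (CD11b) is the alpha chain, while the released fragments C3a and C5a signal through C3ar1 and C5ar1. In the brain microglia are the main source of C1q, and tagging of synapses by C1q and C3 with uptake through CR3 is a known route of synapse removal.

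Each library held between 20700912 and 22263809 counts, and 18248 genes had enough counts to be tested. With edgeR's quasi-likelihood test, cohort as a covariate and Benjamini-Hochberg adjustment over all tested genes at 0.05, 23% of the genes rose and 21.7% fell in rNLS8 mice, 44.7% in either direction. Scaling by library size alone gave 5832 higher and 2752 lower genes in place of 4190 and 3964, so that 67.9% rather than 51.4% of the called genes were higher. Tardbp, the mouse gene of TDP-43, had 2574 ± 207 normalized counts (counts scaled by TMM to the mean library) in wild-type and 4109 ± 951 in rNLS8 mice (SD, n = 11 and n = 10; adjusted p = 1.50e-07). However, rNLS8 replicate 9 lay within the wild-type range and cohort A did not pass by itself (adjusted p = 0.191). The log2 fold change was 0.26 in cohort A and 0.79 in cohort B. Their difference had an edgeR unadjusted p of 7.31e-06 and an adjusted p of 0.133. A copy row, Tardbp-2, rose by 0.55 on the log2 scale (edgeR adjusted p = 1.85e-06). The transgene encodes human TDP-43, while the counts were made on a mouse build. Whether these rows hold reads of the mouse gene, the transgene or both was not tested. Summed markers of neurons were 5023 to 6295 CPM (counts per 1000000) in wild-type and 3756 to 4952 in rNLS8 mice, with no overlap. Of the 5 neuron markers Snap25, Syt1 and Gad1 fell, while Slc17a7 and Rbfox3 did not pass the test, with log2 fold changes of 0.06 and -0.10. Summed markers of neocortical neurons were 325 to 404 CPM in wild-type and 303 to 404 in rNLS8 mice, while those of striatal neurons ranged from 138 to 774 CPM and those of choroid plexus from 15.4 to 2112 CPM over all mice. Replicate 8 of the rNLS8 mice, of cohort A, stood apart for several complement genes, and values without it are given where they change a result. In such bulk tissue, fewer cells of a type and less RNA per cell cannot be told apart.

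Of the 9 complement genes, 7 were higher in rNLS8 mice, 0 were lower, and Itgam and Cd55 did not pass the test. All 9 were tested. Those that rose were C1qa, C1qb, C1qc, C3, C3ar1, C5ar1 and Serping1, and 23% of all tested genes were higher by the same test. DESeq2 called 6 higher, giving C3 no adjusted p, and 0 lower, and 0 were lower at an unadjusted p under 0.05 in edgeR's test. The median log2 fold change of the 9 was 0.57, beside -0.00067 over all tested genes. Since the 9 were chosen with earlier results of these data known, the shares beside them are descriptions and no unbiased comparison. In cohort A alone 5 of the 9 were higher, where 6.99% of the tested genes were, and in cohort B alone 6 were, where 19.3% were.

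The promoters of C1qb, C1qc and Itgam are shown because the C1q chains rose together while Itgam, made by the same kind of cell, did not pass the test. The windows are the 250 bases before the start used for each gene in a RefSeq promoter table on GRCm38.p6, written 5′ to 3′ on the gene's own strand. That of C1qb is chr4:136886201-136886450 (minus strand), that of C1qc chr4:136892915-136893164 (minus strand) and that of Itgam chr7:128062390-128062639 (plus strand). A gene can have several annotated starts, and the C1qc window overlaps the annotated span of C1qc. Capitals mark GAGGAA, a core of the PU-box that the myeloid factor PU.1 can bind, or its reverse complement TTCCTC.
C1qb: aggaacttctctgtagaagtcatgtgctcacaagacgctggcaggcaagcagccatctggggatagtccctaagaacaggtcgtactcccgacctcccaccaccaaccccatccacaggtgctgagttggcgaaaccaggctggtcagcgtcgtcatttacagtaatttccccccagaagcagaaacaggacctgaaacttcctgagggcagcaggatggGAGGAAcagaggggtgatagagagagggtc
C1qc: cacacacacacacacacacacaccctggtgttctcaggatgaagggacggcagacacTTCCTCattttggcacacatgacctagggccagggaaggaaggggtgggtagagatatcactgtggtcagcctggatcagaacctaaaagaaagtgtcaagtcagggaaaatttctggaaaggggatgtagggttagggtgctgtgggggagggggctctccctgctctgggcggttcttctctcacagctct
Itgam: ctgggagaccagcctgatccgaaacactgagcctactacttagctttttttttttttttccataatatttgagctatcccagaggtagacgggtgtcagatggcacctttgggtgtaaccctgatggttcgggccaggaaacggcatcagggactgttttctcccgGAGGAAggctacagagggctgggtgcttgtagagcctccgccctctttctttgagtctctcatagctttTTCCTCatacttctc

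The 7 members with a window in the RefSeq table were searched on both strands. GAGGAA was found at -30 to -25 in C1qb, at -193 to -188 on the opposite strand in C1qc, and at -84 to -79 and, on the opposite strand, -15 to -10 in Itgam, counted back from the start used in that table. It was in 23.3% of 32851 windows of that length. An interferon response element pattern, GAAA and GAAA around any 2 bases, was in 2.98% of windows, TTCNNNGAA, a STAT site pattern, in 7.02%, and an NF-kappaB pattern, GGGA and TTCC around any 2 bases, in 1.21%. None of these 3 patterns was in the windows of C1qb, C1qc, C3, C3ar1, C5ar1, Itgam or Cd55, and GAGGAA was in none of the windows of C3, C3ar1, C5ar1 and Cd55. A match is only a run of letters, and no binding was measured here.

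The C1q chains were each about 1.43- to 1.54-fold higher in rNLS8 mice. Their genes lie side by side on the minus strand of chromosome 4 in GRCm38, C1qb at chr4:136880129-136886187, C1qc at chr4:136889804-136893065 and C1qa at chr4:136895917-136898803, with 3616 bases between the first pair and 2851 between the second. C1qa had 679 normalized counts in the lowest, 840 in the median and 939 in the highest wild-type mouse, and 794, 1166 and 1917 in rNLS8 mice. A total of 9 of 10 rNLS8 mice lay above every wild-type mouse, and replicate 1 lay inside the wild-type range. The means were 802 ± 94.4 and 1226 ± 300 (SD, n = 11 and n = 10), a log2 fold change of 0.62 ± 0.077 (SE; 95% interval 0.47 to 0.78; edgeR adjusted p = 3.98e-07).

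C1qb ranged from 717 through a median of 870 to 1029 normalized counts in wild-type mice and from 918 through 1151 to 2000 in rNLS8 mice. Again 9 of 10 rNLS8 mice exceeded every wild-type mouse, and within each cohort the groups did not overlap. Cohort A held only 4 wild-type and 3 rNLS8 mice, and the share of all genes without overlap within a cohort was not counted. The log2 fold change of C1qb was 0.57 ± 0.067 (SE; edgeR adjusted p = 2.29e-07). C1qc ranged from 722 through 837 to 1051 in wild-type mice and from 916 through 1138 to 1860 in rNLS8 mice, where 8 of 10 exceeded every wild-type mouse. Its log2 fold change was 0.52 ± 0.066 (SE; edgeR adjusted p = 5.98e-07). Across all tested genes, every rNLS8 mouse lay above every wild-type mouse in 3.85%, and none of the 9 complement genes was among them.

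The cohorts differed in their C1q level also among controls. C1qa was 855 to 939 normalized counts in the 4 wild-type mice of cohort A and 679 to 841 in the 7 of cohort B, without overlap. The cohort term of the fit takes up such an offset. Within cohort A the log2 fold changes of C1qa, C1qb and C1qc were 0.81, 0.76 and 0.68 (edgeR adjusted p = 0.00510, 0.00782 and 0.00991), and within cohort B they were 0.53, 0.48 and 0.44 (adjusted p = 3.48e-05, 3.73e-06 and 2.30e-05). The effect in cohort B was lower than that in cohort A by 0.24, 0.25 and 0.21 on the log2 scale, without passing the test of that difference (edgeR unadjusted p = 0.142, 0.0786 and 0.131, adjusted p = 0.877, 0.875 and 0.877). Leaving out 1 mouse at a time, this difference was -0.39 to -0.054 for C1qa, -0.42 to -0.091 for C1qb and -0.35 to -0.051 for C1qc, nearest to 0 without rNLS8 replicate 8 and farthest without rNLS8 replicate 10.

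The chains kept nearly equal shares of their sum in every mouse. C1qa made 30.1% to 33.1% of the summed C1q counts in wild-type and 30.2% to 34.8% in rNLS8 mice, and C1qb and C1qc made between 31.9% and 36.2%. Set against the summed markers of microglia, the C1q sum was 25.6% to 34.0% of them in wild-type mice, with a median of 28.0%, and 30.0% to 49.4% in rNLS8 mice, with a median of 35.4%. The marker sum was itself 388 to 440 CPM in wild-type and 410 to 548 in rNLS8 mice, and 8 of the 10 rNLS8 values exceeded the highest wild-type value. Among 10 microglia markers, 4 rose (among them Olfml3 by a log2 fold change of 0.24, Tmem119 by 0.18 and Csf1r by 0.13), P2ry12, a purine receptor of resting microglia, fell by 0.35, and 5 did not pass the test. The C1q log2 fold changes lay above those of all 10 markers. The part of microglial number in the C1q result was not tested.

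**Figure D1:**
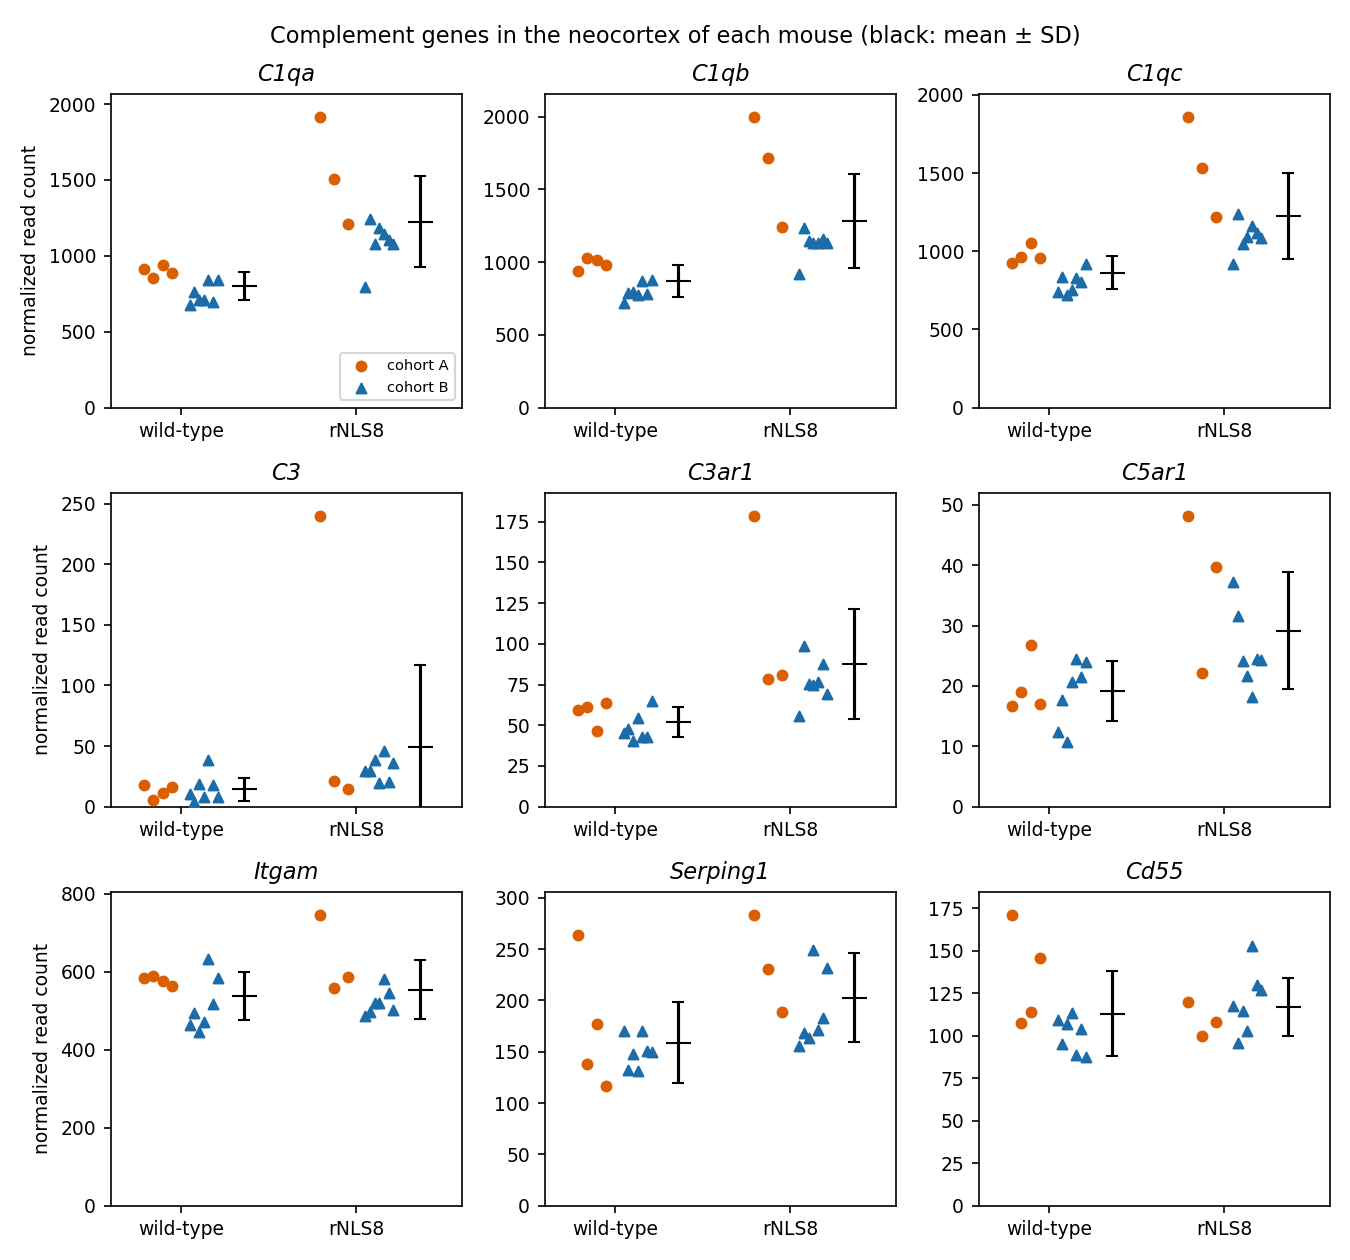
Normalized counts (y axis, linear, from 0) of each complement gene in every mouse, by genotype (x axis), with cohort A as circles, cohort B as triangles and the black point and bar as mean ± SD. For C1qa, C1qb and C3ar1, 9 of 10 rNLS8 mice lay above every wild-type mouse, the C3 mean of 49.5 in rNLS8 mice was raised by 1 mouse at 240, the lower SD bar of that group is cut at 0, and for Itgam and Cd55 the groups overlapped.

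C3, the protein on which all complement pathways meet, was a rare transcript in this tissue. It had 4.15, 11.3 and 38.7 normalized counts in the lowest, median and highest wild-type mouse and 14.3, 29.5 and 240 in rNLS8 mice. Only 2 of 10 rNLS8 mice exceeded every wild-type mouse, whereas 10 of 10 exceeded the wild-type median. It reached the minimum count in 7 of 11 wild-type and 10 of 10 rNLS8 mice, and with no filter edgeR's adjusted p was 0.00148. The log2 fold change was 1.71 ± 0.45 (SE; 95% interval 0.77 to 2.65; edgeR adjusted p = 0.00341). Replicate 8 of the rNLS8 mice, of cohort A, had 240 and the next mouse 45.9. Without replicate 8 the log2 fold change was 0.90 with an adjusted p of 0.0142. In cohort B alone, which does not hold that mouse, it was 1.03 (adjusted p = 0.0227), and cohort A gave 2.89 (adjusted p = 0.0499).

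That mouse also stood apart in other lists. It had the highest summed astrocyte markers, 2661 CPM, against at most 2497 in wild-type mice, and the highest Gfap, an intermediate filament of reactive astrocytes, of all mice. Its summed neutrophil markers were 4.91 CPM, against at most 1.76 in the wild-type mice, of which Ltf alone made 3.85 CPM with 87 counts. Without Ltf the sum of the other 5 markers was 1.06 CPM in that mouse, inside the wild-type range of 0.0966 to 1.66. None of the 6 neutrophil markers had enough counts to be tested. Of 6 astrocyte markers, Gfap rose by a log2 fold change of 1.03, 4 fell and 1 did not pass the test. Their part in the C3 result was not tested. C3 lies at chr17:57203970-57228136 on the minus strand.

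C3ar1, the receptor of C3a, rose 1.71-fold. It ranged from 40.2 through a median of 47.7 to 64.7 normalized counts in wild-type mice and from 55.8 through 77.6 to 179 in rNLS8 mice. Again 9 of 10 rNLS8 mice exceeded every wild-type mouse, and replicate 8 was the highest. Expressed as log2, the fold change was 0.77 ± 0.14 (SE; 95% interval 0.48 to 1.06; edgeR adjusted p = 8.18e-05). Fitted separately, cohort A gave 0.99 (adjusted p = 0.0488) and cohort B 0.66 (adjusted p = 0.000614). The gene lies at chr6:122847138-122856161 on the minus strand.

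C5ar1, the receptor of C5a, was 1.53-fold higher, at low counts. It had 10.8, 19.0 and 26.7 normalized counts in the lowest, median and highest wild-type mouse and 18.2, 24.3 and 48.2 in rNLS8 mice. The groups overlapped, since 4 of the 10 rNLS8 values exceeded the highest wild-type value and 9 of 10 the wild-type median. The fitted log2 fold change was 0.61 ± 0.18 (SE; 95% interval 0.25 to 0.98; edgeR adjusted p = 0.00603). Neither cohort passed the test alone, with 0.91 in cohort A (adjusted p = 0.0894) and 0.46 in cohort B (adjusted p = 0.0845). The gene lies at chr7:16246743-16259540 on the minus strand.

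Itgam, the alpha chain of CR3 and a general marker of myeloid cells, did not pass the test. It ranged from 446 through a median of 565 to 632 normalized counts in wild-type mice and from 486 through 534 to 747 in rNLS8 mice. Only replicate 8 lay above every wild-type mouse, and the rNLS8 median lay below the wild-type median. The log2 fold change was 0.05 ± 0.062 (SE; edgeR adjusted p = 0.514), and its 95% interval of -0.07 to 0.18 lay below the C1qa interval. The gene lies at chr7:128062640-128118491 on the plus strand, and 68.7% of its exon bases are also annotated to Gm49368 on the same strand, so that the counts of Itgam may not hold all of its reads.

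Itgb2, the beta chain with which Itgam forms CR3, was 119 ± 16.2 normalized counts in wild-type and 168 ± 43.3 in rNLS8 mice, 0.49 higher on the log2 scale (edgeR adjusted p = 0.00102). Itgax, the alpha chain of CR4, which pairs with the same beta chain, went from 1.03 to 9.48 in wild-type mice to 14.7 to 149 in rNLS8 mice, with no overlap. Its fitted log2 fold change was 3.07, but no wild-type mouse reached the minimum count of 10, so that Itgax was tested only because it was high in rNLS8 mice.

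The inhibitors differed in outcome. Serping1, the C1 inhibitor that inactivates C1r and C1s, was 1.29-fold higher. It ranged from 117 through a median of 149 to 264 normalized counts in wild-type mice and from 156 through 186 to 284 in rNLS8 mice. All 10 rNLS8 mice exceeded the wild-type median but only 1 exceeded every wild-type mouse. The log2 fold change was 0.36 ± 0.12 (SE; 95% interval 0.12 to 0.61; edgeR adjusted p = 0.0147). Fitted separately, cohort A gave 0.46 (adjusted p = 0.269) and cohort B 0.32 (adjusted p = 0.0254), and without rNLS8 replicates 8 and 9 it was 0.29 with an adjusted p of 0.0784. The highest wild-type mouse, replicate 8 of that group at 264, also had the highest summed choroid plexus markers (2112 CPM) and the highest summed pericyte and fibroblast markers (243.7 CPM) of all 21 mice. Summed choroid plexus markers ranged from 15.4 CPM upward in wild-type and from 23.3 to 1089 in rNLS8 mice, and 0 of the 5 markers passed edgeR's test, 0 at an unadjusted p under 0.05 and 0 in DESeq2. Their part in the Serping1 values was not tested. The gene lies at chr2:84765387-84775444 on the minus strand.

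Cd55, the decay-accelerating factor that takes C3 convertases apart on the cell surface, did not pass the test. It ranged from 87.7 through a median of 107 to 171 normalized counts in wild-type mice and from 95.7 through 116 to 153 in rNLS8 mice, with overlapping groups. The log2 fold change was 0.07 ± 0.11 (SE; 95% interval -0.15 to 0.29; edgeR adjusted p = 0.623). The cohorts differed in direction, with -0.27 in cohort A (adjusted p = 0.395) and 0.24 in cohort B (adjusted p = 0.0721). The difference between them had an unadjusted p of 0.0112 and an adjusted p of 0.853. The table holds a further row for a copy of the gene, Cd55-2, with a log2 fold change of -0.21 (adjusted p = 0.409), and reads may be split between the rows, so the level of Cd55 is uncertain. The gene lies at chr1:130439027-130462744 on the minus strand.

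**Figure D2:**
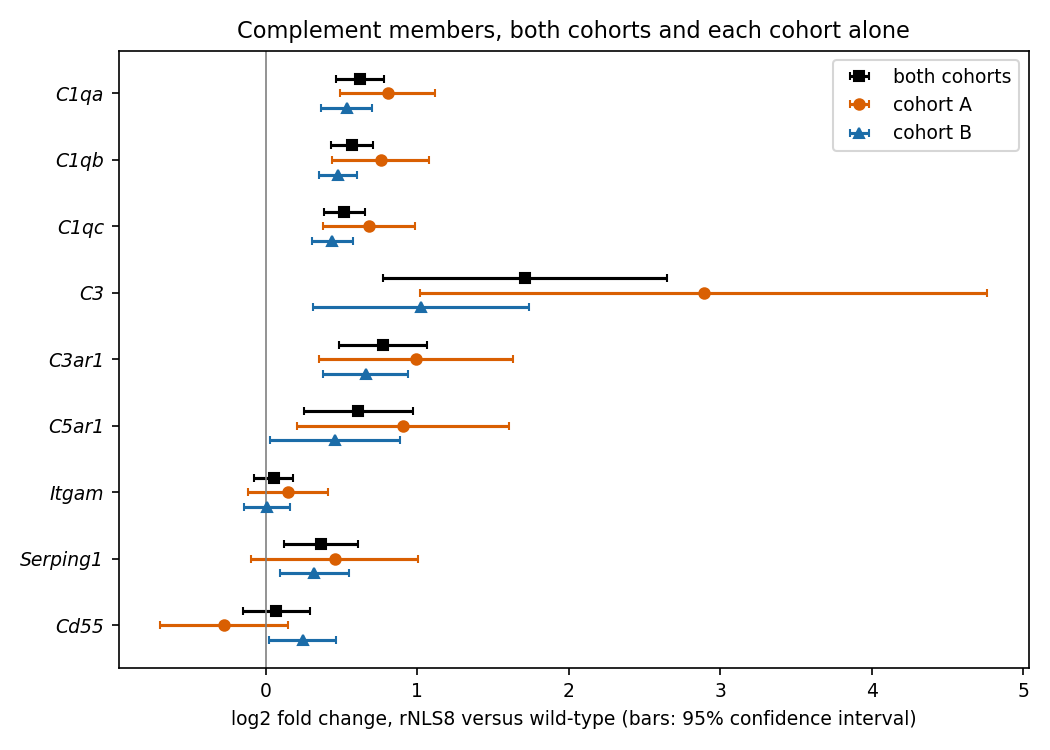
Log2 fold change (x axis, rNLS8 over wild-type mice) of each complement gene with its 95% interval, for all mice and for each cohort alone. With all mice, the intervals of 7 genes lay above 0 and those of Itgam (-0.07 to 0.18) and Cd55 (-0.15 to 0.29) spanned it.

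For none of the 9 genes did the effect of genotype differ between the cohorts after adjustment. The genotype by cohort term called 0 of them in edgeR's test, 1 (Cd55) at an unadjusted p under 0.05, and 0 in DESeq2. Over all tested genes it called 0 in edgeR's test, with 1030 at an unadjusted p under 0.05, and 1 in DESeq2. For C3 the effect in cohort B was 1.83 lower on the log2 scale than in cohort A (unadjusted p = 0.0547, adjusted p = 0.875), and without rNLS8 replicate 8 it was 0.54 higher.

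Divided by the length of merged exons in the GENCODE annotation, C1qa and C1qb were the most abundant of the 9 transcripts, with wild-type medians of 808 and 800 normalized counts per kilobase, which did not differ beyond their spread. C1qc followed at 434, then Itgam at 112, Serping1 at 64.2, Cd55 at 22.1, C3ar1 at 11.1, C5ar1 at 7.38 and C3 at 2.20. The ranges of Itgam and Serping1 overlapped, as did those of C3ar1 and C5ar1 and those of C5ar1 and C3. In rNLS8 mice the medians were 1121, 1058 and 589 for C1qa, C1qb and C1qc, 106 for Itgam, 79.8 for Serping1, 23.9 for Cd55, 18.0 for C3ar1, 9.46 for C5ar1 and 5.74 for C3, in the same order. The length counts the exons of every annotated transcript of a gene, and it is larger for C1qc (1931 bases) than for C1qa (1040 bases).

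Among mice of the same genotype and cohort, the C1q chains moved together. After centring log2 CPM on the mean of each genotype and cohort, C1qa and C1qb had a Pearson r of 0.91 over 21 mice (permutation p = 5e-05, adjusted p = 6e-04 over 36 pairs) and a Spearman rho of 0.777 (permutation test, adjusted p = 0.00336). For C1qa and C1qc r was 0.905 (permutation p = 1e-05, the smallest that 100000 permutations can give, adjusted p = 0.00036) and rho 0.860 (adjusted p = 0.00108). For C1qb and C1qc r was 0.902 (permutation p = 5e-05, adjusted p = 6e-04) and rho 0.797 (adjusted p = 0.00252). Without the 2 mice farthest from the median, r was 0.856, 0.871 and 0.823 for these pairs. The other 33 pairs did not pass. The nearest were C1qa with C3ar1 (r = 0.70), C1qa with Itgam (r = 0.63) and C1qc with C3ar1 (r = 0.70), each with an adjusted permutation p of 0.0682. Across 14583 other genes, the closest to C1qa after C1qb and C1qc was Cyba (r = 0.905), a subunit of the phagocyte NADPH oxidase, and the closest to C3ar1 were Mpeg1 (r = 0.783) and Cd53 (r = 0.781), both expressed by macrophages, as a description with no test.

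**Figure D3:**
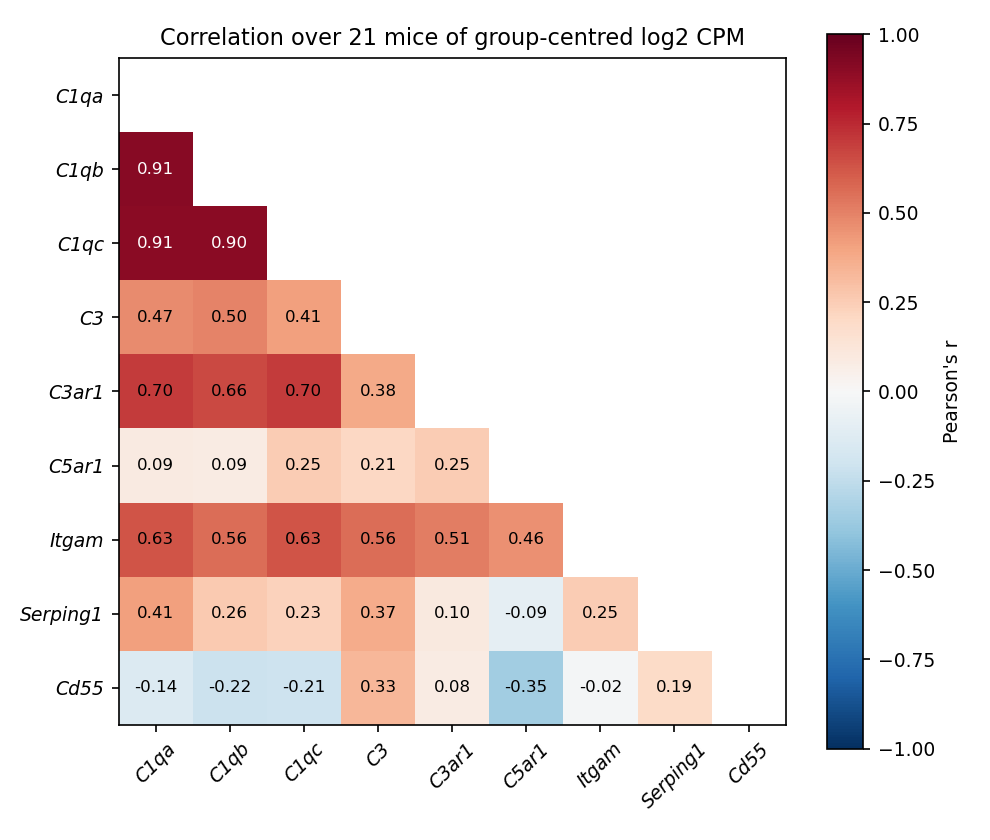
Pearson r between the complement genes over 21 mice, on log2 CPM centred within genotype and cohort, as a matrix with genes on both axes and the colour giving r. The C1q chains form a block with r of 0.902 to 0.91, and Cd55 has values near or below 0 with them.

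The rest of the complement system was described with a list of 56 genes, of which 55 were in the table and 33 were tested. Of these genes, Itgax passed the filter through its counts in rNLS8 mice alone, and the counts of calls below describe the genes tested and not the whole list. A total of 11 rose, 3 fell and 19 did not pass the test, beside 23% and 21.7% of all tested genes that rose and fell. In either direction 14 of the 33 were called, beside 44.7% of all tested genes. The median log2 fold change was 0.10. Among 10 recognition and early components tested, 4 rose. These were C4b, the component cleaved by C1s, and its paralog C4a, with log2 fold changes of 2.12 (edgeR adjusted p = 9.63e-12) and 1.71 (adjusted p = 2.26e-05), and the proteases C1ra and C1rb of the C1 complex with 0.60 (adjusted p = 0.000383) and 0.62 (adjusted p = 0.00268). C4a and C4b are near-identical in sequence, as are C1ra and C1rb, so reads may be split between them. C1s1, the other protease of the C1 complex, had 0.14 (adjusted p = 0.484) and C2 had 0.27 (adjusted p = 0.314).

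Of the terminal components, which build the membrane attack complex, 2 of 7 had enough counts to be tested. C7 fell by 0.75 on the log2 scale (edgeR adjusted p = 0.00300), from 18.0 ± 6.36 to 10.7 ± 2.44 normalized counts (SD, n = 11 and n = 10), and C8g had -0.47 (adjusted p = 0.0504). C9 had no count in any mouse, below the 0.135 to 0.145 CPM that 3 counts make in these libraries. Mbl1, Colec10 and Vsig4 were likewise at 0.

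Among 6 receptors and C1q-binding proteins tested, Itgax, Itgb2 and C1qbp rose and Cd93 fell. C1qbp, a mitochondrial protein that can bind C1q, had a log2 fold change of 0.67 (edgeR adjusted p = 1.76e-09), and Cd93 of endothelial and myeloid cells fell by 0.23 (adjusted p = 0.00898). Among 15 regulators tested, 4 rose, beside 23% of all tested genes. They were Srpx2, a neuronal inhibitor of C1q (0.66, edgeR adjusted p = 0.000807), Cd59b, which blocks the membrane attack complex (0.50, adjusted p = 0.00670), Sez6l2 (0.26, adjusted p = 0.00336) and Cr1l (0.22, adjusted p = 0.000735). Csmd2 fell by 0.31 (adjusted p = 0.0198), and with scaling by library size alone neither Csmd2 nor Cd93 passed the test. Clu had 0.11 (adjusted p = 0.101).

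**Figure D4:**
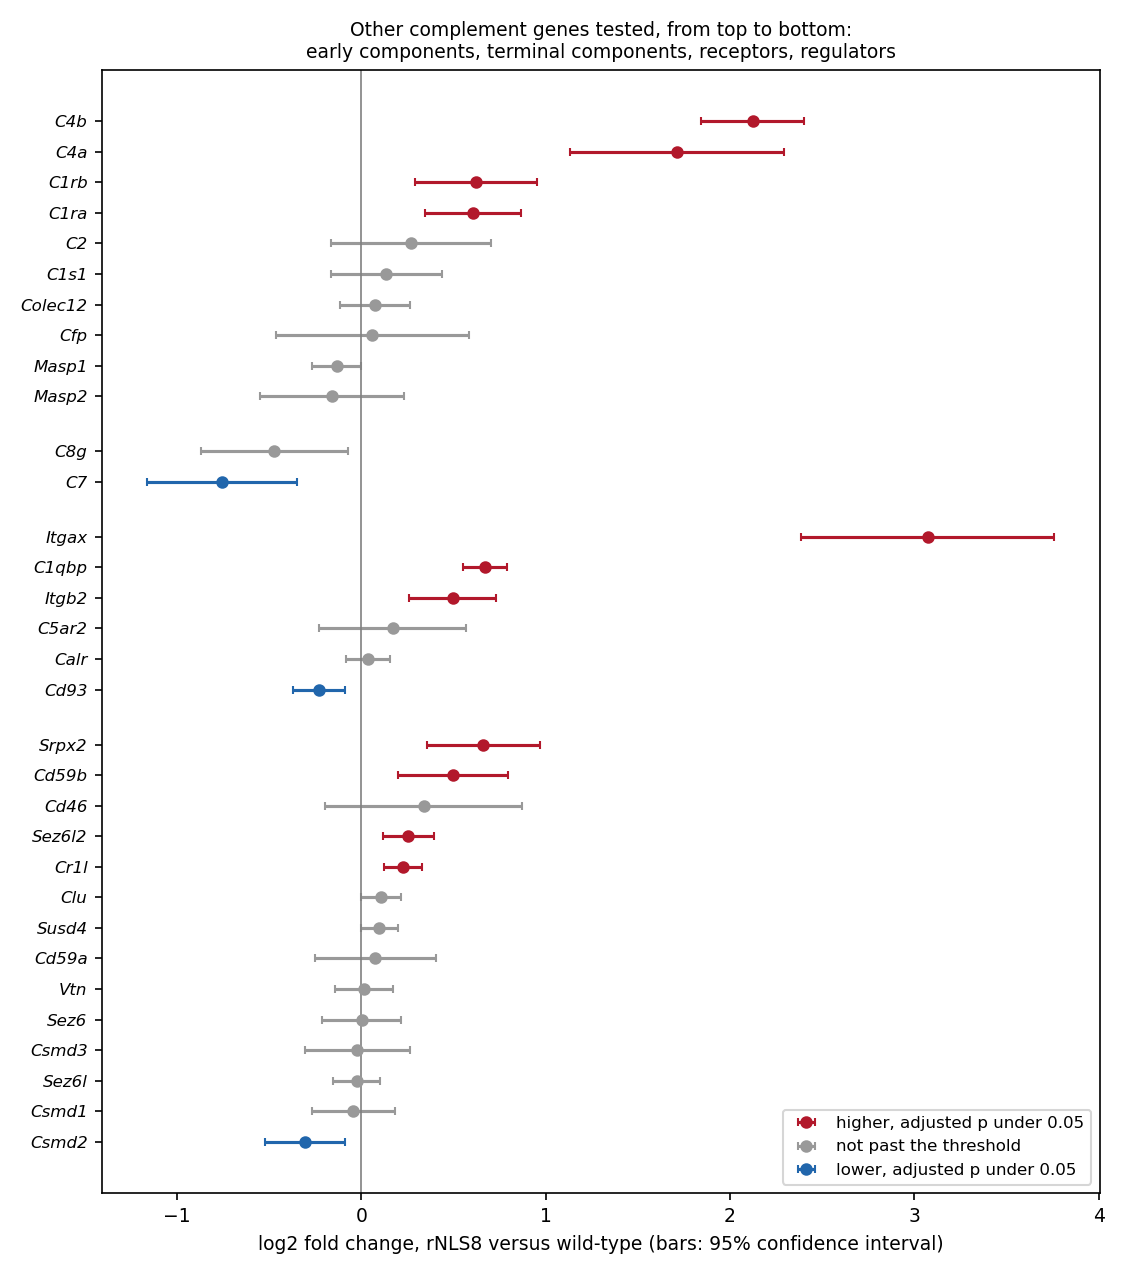
Log2 fold change (x axis, rNLS8 over wild-type mice) of tested genes of the complement list, in blocks by role, with 95% intervals, in red where higher and blue where lower at an adjusted p under 0.05 and in grey otherwise. C4b, C4a and Itgax lie far to the right and C7 to the left, while most regulators lie near 0.

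Markers of other immune cells were at low levels. Of 8 markers of border macrophages and monocytes, 6 were tested and 0 passed edgeR's test, with 1 at an unadjusted p under 0.05 and 0 in DESeq2, and their sum was 7.60 to 13.8 CPM in wild-type and 8.90 to 17.5 in rNLS8 mice. The other 2 markers had too few counts to be tested. Plac8 had 1.51 ± 1.63 normalized counts in wild-type and 14.2 ± 8.32 in rNLS8 mice (SD, n = 11 and n = 10), with 9 of the 10 rNLS8 values above the highest wild-type value. Ccr2, a chemokine receptor of monocytes, had 4.61 ± 1.89 and 8.47 ± 2.36, with 7 of 10 above it. The part of these cells in the complement results was not tested. None of the markers of neutrophils, T cells or B cells had enough counts to be tested. The T cell markers summed to at most 0.885 CPM and the B cell markers to at most 0.838 CPM in any mouse.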

How the data were processed

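RNA of mouse neocortex was sequenced as paired-end 100-base mRNA libraries without molecular identifiers. The deposited table holds gene counts that the authors made from the reads; per the submitters' processing notes the build was mm10 and HISAT, HISAT2, Bowtie, Bowtie2 and RSEM were used, with no role stated, and the counter's settings and strand were not given in the sources used here. The 2553 rows of further copies of a gene symbol held 4.11% of the counts and were kept as rows of their own.

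Counts were normalized by TMM and tested with edgeR 4.0.16 (R 4.3.3, quasi-likelihood, genotype plus cohort) over 18248 genes that passed edgeR's expression filter (minimum count 10, total 15), with Benjamini-Hochberg adjustment at 0.05. Values are counts scaled to the mean effective library. SE is the log2 fold change divided by the root of F. p-values measure the spread between mice. The 3-count floors cover counting error only. In simulated data with 200 changed genes for the comparison of 11 wild-type with 10 rNLS8 mice over 18248 genes, the script recovered 66.7% of 66 genes changed by 0.5, 94.0% of 67 changed by 1 and 97.0% of 67 changed by 2 on the log2 scale.

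Correlations used log2 CPM (prior count 2) permuted within genotype and cohort. Exon lengths and positions came from GENCODE on GRCm38 and promoters from RefSeq, which matched 7 of 9 members. Alternatives were DESeq2 1.42.0, fits without cohort, other scalings and filters, each cohort alone, the Xist level as a covariate since sex was not given, leaving out each mouse, and leaving out rNLS8 replicates 8 and 9. All members were named, with genes of the complement list that passed the test or lead a role, and the 3 genes most correlated with each member. Members and lists were chosen with earlier results of these data known. Some genes of the lists entered the counts but are not reported here by name.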

Additional observations from a re-analysis of the deposited data

Results flagged for a closer look

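In the 10 rNLS8 mice, replicate 8 of cohort A lay far from the others for 3 of the 9 complement genes. For C3 the gap from 240 to the next mouse at 45.9 normalized counts was 0.86 of the whole range, above Dixon's 95% critical value of 0.466 for 10 mice. For C3ar1 the gap from 179 to 98.6 was 0.652 of the range. For Itgam the gap from 747 to 587 was 0.614 of the range. Chance alone would mark about 1 in 20 groups, or 0.45 of the 9 examined.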

How the results depend on the processing

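With 13 alternatives to the fit, 5 to 7 of the 9 complement genes were called, all of them higher. Leaving out each of the 21 mice in turn kept 7 called in every fit, 14 to 16 genes of the complement list, 5 to 7 microglia markers and 7805 to 8363 of all genes, with 0 to 0 members for the genotype by cohort term. In cohort A alone 2195 genes were called in place of 8154, 4 genes of the complement list in place of 14 and 2 microglia markers in place of 5. The microglia markers called were 2 in cohort B alone and 3 without rNLS8 replicates 8 and 9. C5ar1 lost its call in either cohort alone, and Serping1 in cohort A alone and without replicates 8 and 9. C3 could not be tested with at least 10 counts required in every mouse. C1rb of the complement list lost its call in either cohort alone. C4a, Itgb2, C7, Cd59b, Cd93, Cr1l, Csmd2, Sez6l2 and Srpx2 lost theirs in cohort A alone. Cd55 turned to -0.27 in cohort A alone. In the genotype by cohort term, leaving out rNLS8 replicate 8 turned the sign for C3, C3ar1, Itgam and Serping1, as leaving out wild-type replicate 11 did for Serping1. Over the fits that left out 1 mouse, this term was -2.34 to 0.54 for C3, -0.50 to 0.20 for C3ar1, -0.187 to 0.0307 for Itgam and -0.37 to 0.0604 for Serping1. The cause was not tested. No paired analysis was possible because the labels number the mice and give no replicate number shared between genotypes. The depth limits C3 and C5ar1 most, with fewer than 50 counts in most mice.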

Other observations

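The genes closest in pattern to the other members, by Pearson r over 21 mice on log2 CPM centred within genotype and cohort, differed between them. For Serping1 they were C2 (r = 0.883), the protease that follows C4 in the cascade, with its copy row C2-2 (r = 0.888), and Bmp6 (r = 0.874). For C3 they were Fdx1 (r = 0.817), Nfe2l2 (r = 0.797), a transcription factor of the oxidative stress response, and Rarres2 (r = 0.791). For C5ar1 they were Abl1 (r = 0.806), Zfyve26 (r = 0.775) and Adam17 (r = 0.769), a membrane protease. For Itgam they were Crtc3 (r = 0.857), Slco2b1 (r = 0.807) and Fam117a (r = 0.778). For Cd55 they were Antxr1 (r = 0.761), Olfml2b (r = 0.759) and Shroom3 (r = 0.738). After Mpeg1 and Cd53, the closest to C3ar1 was Pld4-2 (r = 0.759), a copy row of Pld4. After the other C1q chains, the closest to C1qb was Aif1-3 (r = 0.872), a copy row of Aif1, and the closest to C1qc was Cyba (r = 0.890). Without the 2 mice farthest from a member's median, r fell to 0.577 for Nfe2l2 with C3 and to 0.581 for Cd53 with C3ar1. It was higher only for Zfyve26 with C5ar1 (0.814). These are descriptions over about 14583 genes with no test.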
